A study of Mus musculus with 16 samples.

Results

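The 9 genes Ehhadh, Acaa1a, Acaa1b, Hsd17b4, Abcd3, Crot, Pex11a, Cyp4a10 and Vnn1, which serve peroxisomal fatty acid oxidation or are textbook targets of the nuclear receptor PPAR alpha, were examined in the terminal ileum of mice lacking Bcl6 in hepatocytes. They were chosen by symbol, with earlier results of these data known, and all 9 were found among the 24940 genes of the count table. Counts and medians set beside those of all genes are therefore descriptions and not tests of the members as a group. RNA sequencing covered 16 C57BL/6 mice in 4 groups of 4, 1 library per mouse. Every mouse was Bcl6 fl/fl. The WT males and WT females carried no other allele, whereas the LKO males and LKO females also carried Alb-cre, which is driven by the albumin promoter and acts in hepatocytes. The sources used here gave no age and no treatment, and stated feeding ad libitum or a short fast without saying which applied to these mice. The comparisons ask whether loss of hepatic Bcl6 altered these genes in an organ in which the Cre driver is not meant to act.

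Ileal Bcl6 was not lower in LKO mice, at 9.24 to 17.9 CPM in the 8 WT libraries and 15.2 to 26.1 CPM in the 8 LKO libraries (CPM, counts per M gene counts after TMM scaling, M standing for mega). Its log2 fold change over both sexes was 0.51 (edgeR adjusted p = 0.121). The highest values, 23.6 and 26.1 CPM, were in female LKO replicates 2 and 3. Depth was 15.7 M to 20.5 M gene counts for 15 of the mice, while female LKO replicate 1 had 60.3 M. Enterocyte markers summed to 22510 to 30487 CPM and distal ileum markers to 4419 to 8143 CPM, with all 10 of the latter above 1 CPM. The colon list summed to 5448 to 7806 CPM, with 6 or 7 of its 8 measured genes above 1 CPM. B cell markers summed to 138 CPM in male WT replicate 2, 237 CPM in female LKO replicate 2 and 447 CPM in female LKO replicate 3, against 20.8 to 83.9 CPM in the other 13 libraries. Results that moved most without these 3 libraries are given with and without them. In pieces of whole ileum, fewer cells of a type and less RNA per cell cannot be told apart.

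Peroxisomes shorten very long-chain, branched and dicarboxylic fatty acids and the side chains of bile acid precursors by rounds of oxidation, hydration, dehydrogenation and thiolysis. Abcd3 brings acyl-CoAs into the organelle, Ehhadh and Hsd17b4 are the L- and D-bifunctional enzymes of the middle steps, Acaa1a and Acaa1b are the thiolases, and Crot attaches the shortened chains to carnitine for export to mitochondria. Pex11a is a membrane protein that takes part in the elongation and division of peroxisomes. Cyp4a10 starts omega-oxidation at the endoplasmic reticulum, and Vnn1 is a pantetheinase anchored at the cell surface. PPAR alpha, a fatty acid sensor of liver and intestine, binds DNA with RXR and induces such genes in rodents during fasting or under fibrates.

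The thiolase genes show how closely related members can be told apart. Acaa1a lay at chr9:119341294-119350295 on the plus strand and Acaa1b at chr9:119148043-119157093 on the minus strand (mm10). Their coding sequences were each 1275 bases long and differed at 44 positions, an identity of 96.5%. The first 120 coding bases of each, with the bases that differ in capitals, are shown because this pair had near-identical coding sequence and very unequal levels.
Acaa1a: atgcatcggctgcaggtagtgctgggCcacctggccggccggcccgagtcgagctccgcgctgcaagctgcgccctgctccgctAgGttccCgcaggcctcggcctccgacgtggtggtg
Acaa1b: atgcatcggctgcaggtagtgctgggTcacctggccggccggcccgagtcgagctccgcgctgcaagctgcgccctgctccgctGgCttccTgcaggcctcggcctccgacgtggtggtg
Of the 100-base windows of each transcript, 21.6% for Acaa1a and 22.6% for Acaa1b occurred in the other gene as well. Reads from such windows map to more than 1 place and were discarded by the authors, so both genes lose reads. Exons of Acaa1a also overlapped Myd88 by 290 bases, and those of Acaa1b overlapped Dlec1 by 224 bases, on the opposite strand. The strand setting of the counting was not given in the sources used here.

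Upstream of the start the thiolase pair was less alike, with 53.0% identity over 234 aligned bases. The 250 bases before the annotated start are given for both, and for Pex11a as the member whose difference between genotypes passed the test. Capitals mark CG dinucleotides. The stretches are chr9:119341044-119341293 (plus strand), chr9:119157094-119157343 (minus strand) and chr7:79743132-79743381 (minus strand), from RefSeq on GRCm38.p6.
Acaa1a: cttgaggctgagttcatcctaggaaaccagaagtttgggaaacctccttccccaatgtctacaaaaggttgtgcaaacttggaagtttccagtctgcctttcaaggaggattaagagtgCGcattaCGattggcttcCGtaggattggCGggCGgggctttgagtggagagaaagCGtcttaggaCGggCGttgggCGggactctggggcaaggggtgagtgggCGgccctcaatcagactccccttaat
Acaa1b: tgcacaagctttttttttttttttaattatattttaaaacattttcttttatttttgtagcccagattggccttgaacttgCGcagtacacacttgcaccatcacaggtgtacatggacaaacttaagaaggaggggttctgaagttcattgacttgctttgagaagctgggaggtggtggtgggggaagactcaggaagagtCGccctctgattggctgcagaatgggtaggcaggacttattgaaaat
Pex11a: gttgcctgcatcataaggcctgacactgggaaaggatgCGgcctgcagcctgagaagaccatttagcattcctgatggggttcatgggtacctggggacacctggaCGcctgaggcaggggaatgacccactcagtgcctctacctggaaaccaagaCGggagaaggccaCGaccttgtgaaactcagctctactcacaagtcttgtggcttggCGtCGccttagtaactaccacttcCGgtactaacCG
The stretch held 10 CG dinucleotides in Acaa1a, 2 in Acaa1b and 8 in Pex11a, against a median of 6 over all 32851 promoters of the table. Promoters were found for 6 members (Abcd3, Crot, Pex11a, Acaa1a, Acaa1b and Ehhadh). Searched on both strands, the half-site AGGTCA was in none of their 7 stretches and in 14% of all promoters. The 2 half-sites in direct repeat with 1 base between them, AGGTCANAGGTCA, were in none of the 7 and in 0.0335% of all promoters. These counts describe letters in a short window only.

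Compared per kilobase of counted exon, 7 of the 9 genes were well expressed. Abcd3 had the highest mean level over the 16 libraries at 66.4 CPM per kb, followed by Acaa1a at 55.0, Hsd17b4 at 38.5, Crot at 34.3, Vnn1 at 30.0, Ehhadh at 25.2 and Pex11a at 17.3 CPM per kb. Acaa1b followed at 0.672 CPM per kb, and Cyp4a10 was last with 1 read in all 16 libraries together. Along this order, the ranges over libraries did not overlap between Acaa1a and Hsd17b4, between Pex11a and Acaa1b, or between Acaa1b and Cyp4a10. The ranges of the other neighbours overlapped. Within libraries the order of these neighbours held in 11 of 16 for Vnn1 above Ehhadh, in 13 for Hsd17b4 above Crot and for Crot above Vnn1, in 14 for Abcd3 above Acaa1a and in 15 for Ehhadh above Pex11a. As a ratio of the highest to the lowest library, Vnn1 varied most of the 7, at 2.89 (41.7 to 120.5 CPM), and Acaa1a least, at 1.28 (83.1 to 106.4 CPM).

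**Figure D1:**
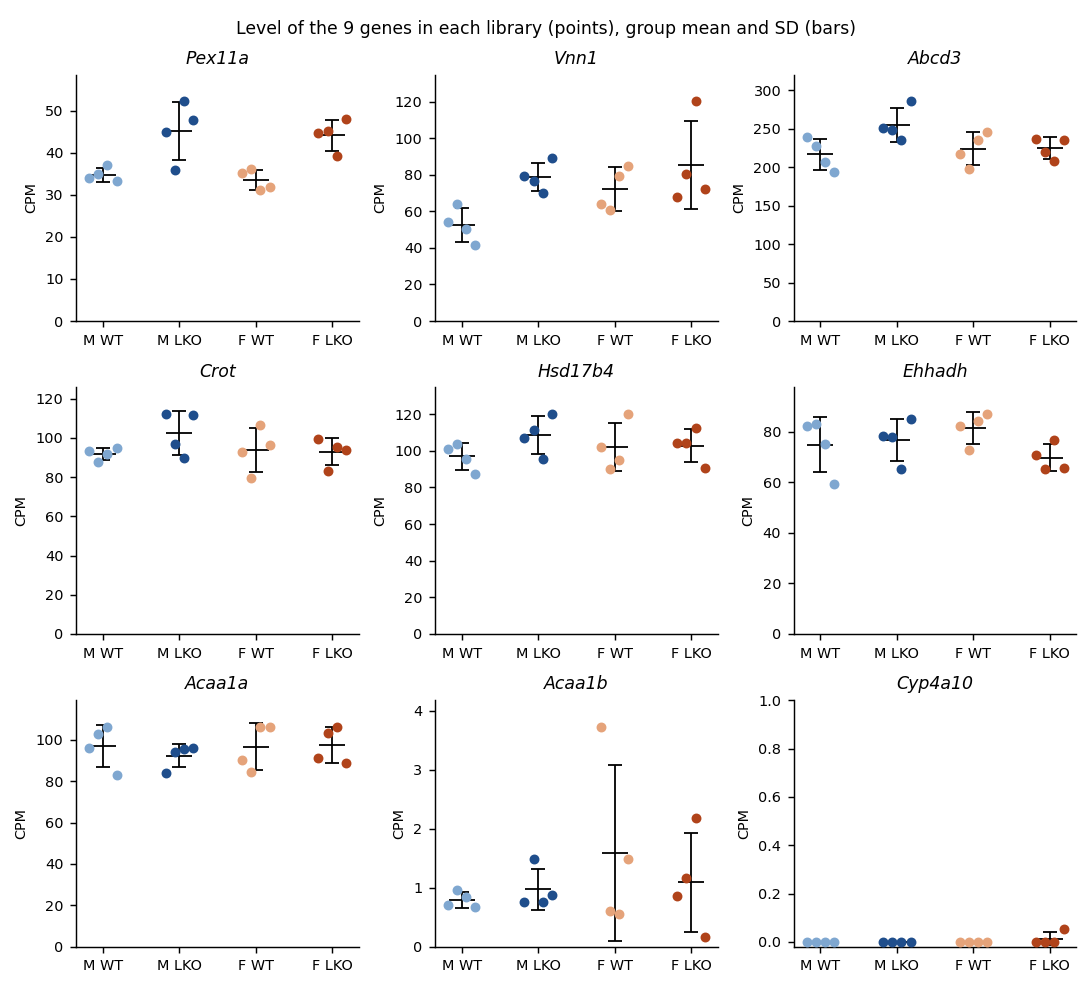
CPM (y axis, linear) of each of the 9 genes in the 16 libraries (points) by group (M, male; F, female), with group mean and SD (n = 4). Pex11a was at 31.3 to 37.03 CPM in the 8 WT libraries and at 36.0 to 52.3 CPM in the 8 LKO libraries, whereas Acaa1a was at 83.1 to 106.4 CPM with no separation by genotype.

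With sex as a covariate, Pex11a was higher in LKO ileum and was the only member to pass in edgeR, while DESeq2 called Vnn1 as well. In males it was at 33.9, 35.0, 37.03 and 33.2 CPM in the WT libraries and at 44.9, 36.0, 52.3 and 47.7 CPM in the LKO libraries. The male groups overlapped by the single library male LKO replicate 2, and the other LKO males stood above all WT males. In females it was at 35.2, 36.0, 31.3 and 31.9 CPM in WT and at 44.7, 45.2, 39.1 and 48.0 CPM in LKO, and these groups did not overlap, as for 3.03% of the genes tested in females. Over both sexes the log2 fold change was 0.39 (SE 0.0645, 95% interval 0.25 to 0.52), a 1.31-fold higher level, with an adjusted p of 0.0165 in the quasi-likelihood test of edgeR. This was 1 of the 8 members tested, where 0.269% of the 15598 genes tested passed the same threshold of 0.05.

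The Pex11a difference was estimated at nearly the same size in each sex. Within 1 sex it did not pass in edgeR, whereas in DESeq2 it passed in females (adjusted p = 0.00443) and not in males (adjusted p = 0.120). Group means were 34.8 ± 1.67 CPM in male WT and 45.2 ± 6.87 CPM in male LKO (SD, n = 4), with 0.39 on the log2 scale (SE 0.0990 and adjusted p = 0.306 in edgeR). In females WT averaged 33.6 ± 2.38 CPM and LKO averaged 44.2 ± 3.69 CPM (SD, n = 4), with 0.40 on the log2 scale (SE 0.0781 and adjusted p = 0.121 in edgeR). The genotype by sex interaction was -0.02 on the log2 scale with a 95% interval of -0.29 to 0.26 (edgeR adjusted p = 0.992). Its relative Pex11g did not pass the test in either sex, with a both-sexes log2 fold change of 0.03 (edgeR adjusted p = 0.933).

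The call for Pex11a depended on which libraries and covariates entered the fit, while its size did not. Sample titles carry numbers in which WT mice are mostly low and LKO mice mostly high. With that number as a covariate the log2 fold change was 0.41 (edgeR adjusted p = 0.114), and with 5 sets of neighbouring numbers as a factor it was 0.42 (edgeR adjusted p = 0.269). Within the largest set, of 6 libraries, Pex11a was at 33.2 and 31.9 CPM in the 2 WT libraries and at 44.9, 45.2, 39.1 and 48.0 CPM in the 4 LKO libraries. Every LKO library of that set was above both WT libraries, but the set mixed the sexes. The share of all genes that separated in this way was not counted. In a fit on this set alone, chosen after the data had been seen, Pex11a did not pass. Leaving out, after the data had been seen, the 3 libraries rich in B cell markers gave 0.42 (edgeR adjusted p = 0.0565), and leaving out male WT replicate 1 gave 0.38 (edgeR adjusted p = 0.0585).

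Vnn1 was higher in male LKO ileum without overlap of the groups, but did not pass the threshold in edgeR. It was at 54.4, 64.2, 50.6 and 41.7 CPM in male WT and at 79.2, 76.8, 70.2 and 89.1 CPM in male LKO, so that the lowest LKO male stood above the highest WT male. The log2 fold change was 0.59 (SE 0.116, 95% interval 0.34 to 0.84), with an adjusted p of 0.137 in edgeR and 0.00127 in DESeq2. Without male WT replicate 2, the library of that group with the most B cell marker RNA, it was 0.70 (edgeR adjusted p = 0.0241). Of the genes tested in males, 1.65% were higher in LKO without overlap, and Vnn1 was 1 of 8 members in that state. All male WT title numbers were below all male LKO numbers, so this difference cannot be told apart from number order.

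In females Vnn1 was at 64.0, 60.5, 79.4 and 85.1 CPM in WT and at 68.2, 80.3, 120.5 and 72.2 CPM in LKO. These groups overlapped, and only female LKO replicate 3, the library with the highest B cell marker sum, lay above all WT females. The log2 fold change was 0.24 (SE 0.204, 95% interval -0.24 to 0.71; edgeR adjusted p = 0.664). Without female LKO replicates 2 and 3 it was -0.05 (edgeR adjusted p = 0.945). Vnn1 and the summed B cell markers, all 10 of which were detected in every group, 5 to 10 of them above 1 CPM, had a Pearson r of 0.715 over the 16 libraries after group means were removed. Its r with summed distal ileum markers was 0.652 and with enterocyte markers 0.632. In males the distal ileum sum was 4419 to 6208 CPM in WT and 5900 to 6451 CPM in LKO. The part of these markers in the result was not tested. In male LKO libraries the B cell marker sum was 26.4 to 29.7 CPM, and in the other 3 male WT libraries it was 20.8 to 29.9 CPM.

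**Figure D2:**
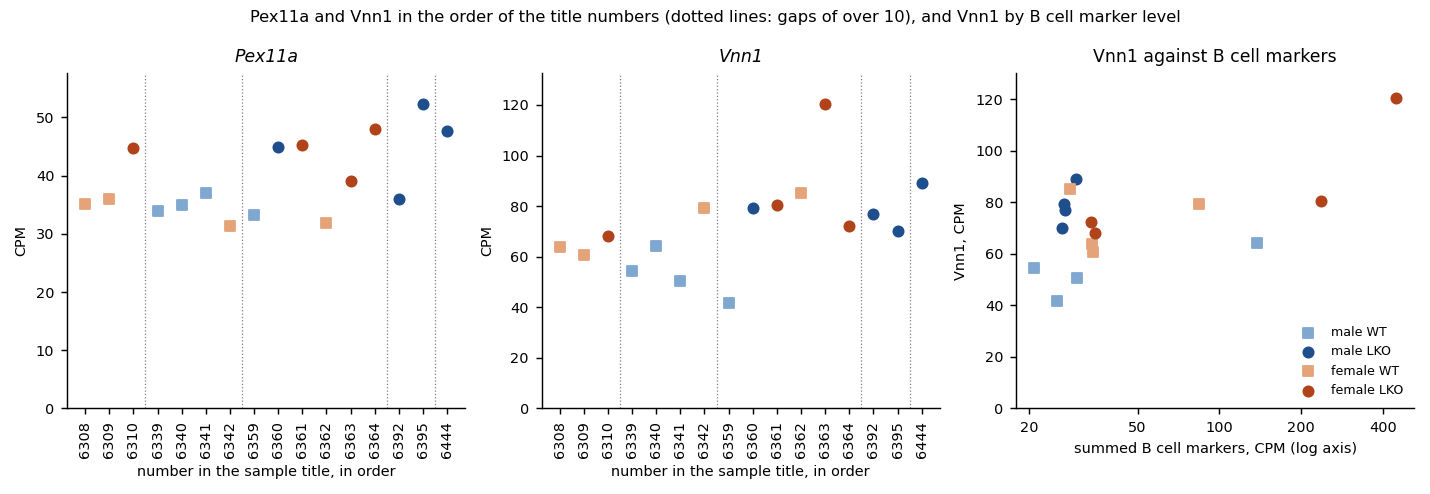
CPM of Pex11a and of Vnn1 (y axes) by the number in the sample title (x axis, in order), with squares for WT, circles for LKO and dotted lines at gaps of over 10, and at right Vnn1 against summed B cell markers (CPM, log x axis). Pex11a in LKO was 36.0 CPM or more at every number, and the Vnn1 maximum of 120.5 CPM was in the library with a B cell marker sum of 447 CPM.

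Over both sexes the Vnn1 log2 fold change was 0.41 (95% interval 0.13 to 0.69), with an adjusted p of 0.235 in edgeR and 0.0421 in DESeq2. The DESeq2 fit was the only 1 of 29 alternatives over both sexes to pass, with log2 fold changes of 0.21 to 0.46. In males 3 of 18 alternatives passed, with 0.49 to 0.70. The difference between the sexes in the genotype effect on Vnn1 was 0.35 on the log2 scale (95% interval -0.20 to 0.89, edgeR adjusted p = 0.864). Without the 3 libraries rich in B cell markers that difference was 0.74, with an unadjusted p of 0.00105 and an adjusted p of 1.00 in edgeR.

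The importer Abcd3, and Crot, the enzyme that attaches shortened chains to carnitine, had small differences that did not pass the test. Abcd3 was at 239, 227, 207 and 194 CPM in male WT and at 251, 248, 235 and 286 CPM in male LKO. These ranges overlapped only between 235 and 239 CPM, and the log2 fold change was 0.24 (SE 0.0811, edgeR adjusted p = 0.670). WT females averaged 224 ± 21.0 CPM of Abcd3 and LKO females 225 ± 14.2 CPM (SD, n = 4), a log2 difference of 0.01 with a 95% interval of -0.16 to 0.17. Crot averaged 92.0 ± 3.03 CPM in male WT and 102.6 ± 11.3 CPM in male LKO, with log2 fold changes of 0.16 in males (edgeR adjusted p = 0.920) and -0.01 in females (edgeR adjusted p = 0.969).

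Neither bifunctional enzyme passed the test. Ehhadh was at 82.3, 72.7, 84.2 and 87.2 CPM in female WT and at 70.8, 65.5, 76.8 and 65.6 CPM in female LKO. Only 1 LKO female, replicate 3, exceeded the lowest WT female, and the log2 fold change was -0.23 (SE 0.0738, edgeR adjusted p = 0.315). WT males averaged 75.0 ± 10.9 CPM of Ehhadh and LKO males 76.7 ± 8.197 CPM (SD, n = 4), a log2 fold change of 0.04 with a 95% interval of -0.19 to 0.27. Its genotype by sex interaction was 0.26 (95% interval -0.03 to 0.55, edgeR adjusted p = 0.845). Hsd17b4 had log2 fold changes of 0.17 in males (edgeR adjusted p = 0.936) and 0.02 in females (edgeR adjusted p = 0.961).

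The thiolase Acaa1a had group means within a narrow band and did not pass the test. Its means were 97.1 ± 10.2, 92.4 ± 5.53, 96.7 ± 11.2 and 97.4 ± 8.70 CPM in males without and with Alb-cre and in females without and with it, in that order (SD, n = 4). The both-sexes log2 fold change was -0.03 with a 95% interval of -0.16 to 0.10. Acaa1b, with 354 reads in all against 31623 for Acaa1a, was at 0.159 to 3.73 CPM, the highest in female WT replicate 1 and the lowest in female LKO replicate 4. Its both-sexes interval of -1.12 to 0.73 on the log2 scale was too wide to place it.

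Cyp4a10, the omega-hydroxylase that is a standard readout of PPAR alpha in mouse liver, was not detectable at this depth. A single read was found in female LKO replicate 4 and none in the other 15 libraries, in which 3 reads would have been 0.0497 to 0.191 CPM. It did not pass the filter on low counts and was not tested. Of its transcript's 100-base windows, 12.0% also occurred in Cyp4a31 or Cyp4a32. Those genes and Cyp4a14, Cyp4a12a and Cyp4a12b were at most at 0.205 CPM in any library, the highest being Cyp4a32 in male WT replicate 4.

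**Figure D3:**
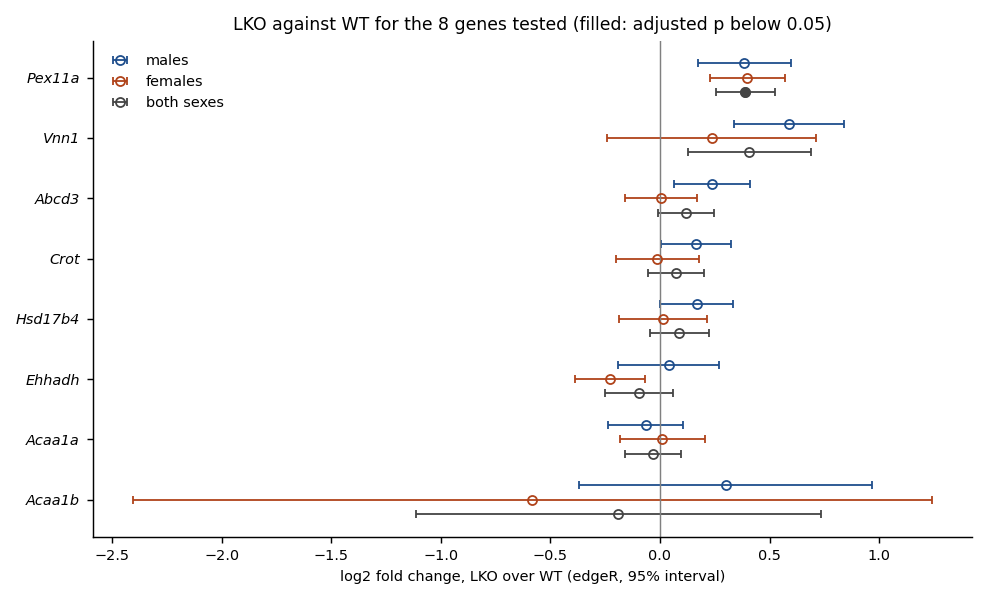
Log2 fold change of LKO over WT (x axis) with its 95% interval from edgeR for the 8 genes tested (rows), in males (blue), females (orange) and both sexes (grey). The filled point is the value with an adjusted p below 0.05, Pex11a at 0.39 in both sexes, and the Acaa1b intervals are the widest.

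In males 0 of the 8 tested passed in edgeR, where 0.0527% of all genes did. In DESeq2 1 passed (Vnn1), among 59 genes called in all. At an unadjusted p below 0.05, 5 were higher (Vnn1, Pex11a, Abcd3, Crot and Hsd17b4) and none lower, against 3.01% of all genes higher and 5.29% in either direction. The median log2 fold change over the 8 was 0.20, beside -0.0020 over all genes. In females 0 of 8 passed in edgeR, where 0.0392% of all genes did, and 1 passed in DESeq2 (Pex11a). At an unadjusted p below 0.05, Pex11a was higher and Ehhadh lower, against 11.7% of all genes in either direction, and the members' median was 0.0085 beside 0.0070. For the genotype by sex interaction, 0 of 8 members and 0.0% of genes passed in edgeR, 0 of the members did in DESeq2, and none had an unadjusted p below 0.05, as 5.64% of genes did. Over both sexes 2 of the 8 (Pex11a and Vnn1) had an unadjusted p below 0.05, both higher, against 11.2% of all genes in either direction. DESeq2 called the same 2. The shares of all genes given here are those of edgeR and do not apply to the DESeq2 calls. The DESeq2 counts over all genes are given in the last section. The members' median log2 fold change was 0.08 beside 0.00070 over all genes.

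Between the sexes no member passed the test in either genotype. Vnn1 had the largest difference among WT mice apart from the sparse Acaa1b, being lower in males at 52.7 ± 9.31 CPM than in females at 72.3 ± 11.9 CPM (SD, n = 4). Its log2 difference of male over female was -0.47 (SE 0.148, edgeR adjusted p = 0.231), and the groups overlapped at 60.5 to 64.2 CPM. Of the 8 members, 0 passed among WT mice in edgeR, where 0.25% of genes did, and 0 passed among LKO mice, where 0.0984% did. DESeq2 called 0 in both, and its counts over all genes are given in the last section. At an unadjusted p below 0.05 1 of 8 was lower in males among WT mice (Vnn1), against 13.9% of genes in either direction. Among LKO mice 1 of 8 was higher in males (Abcd3, log2 difference 0.18, edgeR adjusted p = 0.178), against 22.6% of genes.

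The wider pathways were described by 4 lists, likewise chosen with earlier results of these data known, so their counts beside all genes are descriptions only. Of the genes of peroxisomal fatty acid oxidation, 33 of 35 were tested over both sexes in edgeR and 0 passed, where 0.269% of all genes did. In DESeq2 0 of 30 passed. At an unadjusted p below 0.05, 3 were higher and 2 lower, against 11.2% of all genes in either direction, and the median log2 fold change was 0.04. This list held catalase, Cat, which breaks down hydrogen peroxide, with a log2 fold change of -0.10 (edgeR adjusted p = 0.622). Of 22 peroxisome biogenesis genes, Pex11a alone passed in edgeR, beside the same 0.269% of all genes, and the median was 0.02.

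Among the PPAR alpha targets, 32 of 40 were tested and 4 rose in LKO over both sexes, with none lower, against 0.122% of all genes higher. Besides Pex11a these were Acadl, a mitochondrial acyl-CoA dehydrogenase, Hadha, a subunit of the mitochondrial trifunctional protein, and Slc25a20, the carnitine-acylcarnitine carrier of the inner membrane. The last 3 act in mitochondrial rather than peroxisomal oxidation. The median of the list was 0.20 beside 0.00070 over all genes, and 24 of the 32 were above 0, beside 50.2% of all genes. Without the 3 libraries rich in B cell markers 1 gene of the list passed (Acadl) and the median was 0.08. Leaving out single libraries gave 1 to 4 calls. The count was 1 if male WT replicate 1 was left out, and 2 for male WT replicate 2, male LKO replicate 2 or 4, female WT replicate 1 or 2, or female LKO replicate 1, 2 or 3. With the title number or the sets of numbers in the fit 0 passed.

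Acadl had the clearest difference of these genes. It was at 127, 115, 155 and 134 CPM in male WT and at 171, 174, 206 and 204 CPM in male LKO. In females it was at 119, 127, 131.7 and 125 CPM in WT and at 166, 161, 165 and 159 CPM in LKO. The groups did not overlap in either sex, as for 1.65% of genes higher in LKO males and 3.03% higher in LKO females. As for Vnn1, the difference in males cannot be told apart from the order of the title numbers. Its log2 fold change was 0.51 in males (SE 0.0947, edgeR adjusted p = 0.0669) and 0.37 in females (SE 0.0549, edgeR adjusted p = 0.0431), and 0.44 over both (SE 0.0576, edgeR adjusted p = 0.000834). The call in females was lost in all 8 fits that left out 1 library, with edgeR adjusted p between 0.0828 and 0.147. Over both sexes 26 of 29 alternatives passed, with log2 fold changes of 0.36 to 0.47.

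Hadha rose over both sexes by 0.24 on the log2 scale (SE 0.0471, edgeR adjusted p = 0.0321), from 281.5 to 328.5 CPM in WT to 327 to 400 CPM in LKO. Slc25a20 rose by 0.35 (SE 0.0721, edgeR adjusted p = 0.0470), from 83.2 to 118 CPM in WT to 99.4 to 153 CPM in LKO. Within each sex the Hadha groups did not overlap, as for 1.65% of genes higher in LKO males and 3.03% higher in LKO females. The Slc25a20 groups overlapped in each sex. Without the 3 libraries rich in B cell markers neither passed, with 0.26 for Hadha (edgeR adjusted p = 0.137) and 0.41 for Slc25a20 (edgeR adjusted p = 0.105). Within 1 sex, 0 of 30 targets passed in males in edgeR and 4 in DESeq2, and 1 of 32 (Acadl) passed in females in edgeR and 4 in DESeq2. Of all genes, edgeR called 0.0527% in males and 0.0392% in females, and the DESeq2 counts over all genes are given in the last section. At an unadjusted p below 0.05, 12 targets were higher and 1 lower in males, against 5.29% of all genes in either direction. In females 9 were higher and 1 lower, against 11.7% of all genes. Acot1, a cytosolic acyl-CoA thioesterase, was 0.86 higher in LKO males (edgeR adjusted p = 0.340), and Creb3l3, a lipid-responsive transcription factor, was 0.66 higher in LKO females (adjusted p = 0.206 in edgeR and 0.00146 in DESeq2). Without female LKO replicates 2 and 3 the Creb3l3 value was 0.42 (edgeR adjusted p = 0.315). Eci2, a peroxisomal enoyl-CoA isomerase, was 0.22 higher in LKO females (edgeR adjusted p = 0.231), from 41.4 to 43.5 CPM in WT to 47.6 to 51.5 CPM in LKO.

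**Figure D4:**
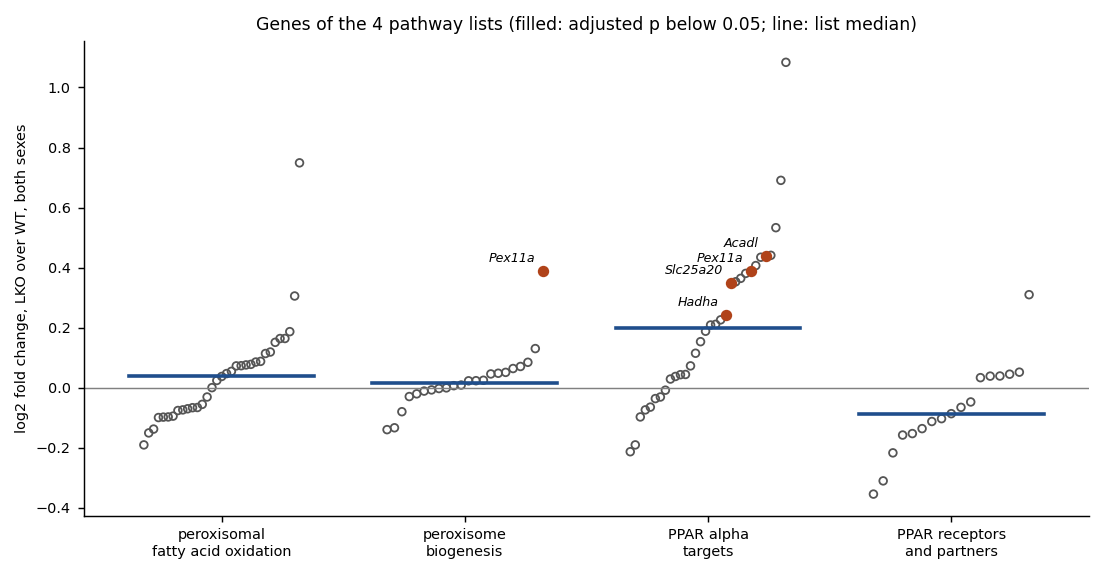
Log2 fold change of LKO over WT in both sexes (y axis) for each tested gene of the 4 lists (points, in rising order), with the list median as a line and filled points for an adjusted p below 0.05. The filled points are Pex11a, Acadl, Hadha and Slc25a20, and the medians are 0.04, 0.02, 0.20 and -0.09 from left to right.

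The receptor itself did not pass the test in either sex. Ppara was at 30.3, 35.5, 35.3 and 32.3 CPM in male WT and at 41.6, 34.1, 26.2 and 32.9 CPM in male LKO, a log2 difference of 0.02 (SE 0.114 and adjusted p = 0.999 in edgeR). In females it was at 43.3, 37.98, 36.1 and 36.8 CPM in WT and at 36.4, 28.4, 29.7 and 35.4 CPM in LKO, a log2 difference of -0.24 (SE 0.0933 and adjusted p = 0.361 in edgeR). The female groups overlapped by 1 library on each side, and without female LKO replicates 2 and 3 the value was -0.10 (edgeR adjusted p = 0.798). Of the 17 receptors and partners tested over both sexes, 0 passed in edgeR, where 0.269% of all genes did. In DESeq2 1 was lower, the coactivator Ppargc1a. At an unadjusted p below 0.05, 1 was higher and 6 lower, against 11.2% of all genes in either direction, and the list median was -0.09. In females LKO was below WT without overlap for 3 of them, against 3.28% of all genes. Their log2 fold changes were -0.39 for Ppargc1a (edgeR adjusted p = 0.318), -0.25 for the coactivator Ncoa2 (edgeR adjusted p = 0.283) and -0.41 for the corepressor Nrip1 (edgeR adjusted p = 0.285). The last was -0.28 without female LKO replicates 2 and 3 (edgeR adjusted p = 0.446).

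Sex differences in the lists were likewise below the threshold in edgeR. DESeq2 called Ppard, higher in males, among WT mice. Among LKO mice it called Hnf4a, higher in males, and Abcd2, Acsl1, Cd36, Gpt2 and Mgll, lower in males. Its counts over all genes are given in the last section. Ppard, the PPAR subtype that is abundant in intestine, was higher in males by 0.27 among WT mice (edgeR adjusted p = 0.151) and by 0.22 among LKO mice (edgeR adjusted p = 0.114). The corresponding values for Hnf4a, a nuclear receptor of enterocytes, were 0.14 (edgeR adjusted p = 0.344) and 0.17 (edgeR adjusted p = 0.127). Nudt19, a peroxisomal CoA diphosphatase, was 0.17 higher in WT males (edgeR adjusted p = 0.239), and Ppara had -0.22 there (edgeR adjusted p = 0.266). Among LKO mice Acadl was 0.21 higher in males (edgeR adjusted p = 0.125). Gpt2, Acsl1 and Fis1 lay below in LKO males without overlap with LKO females, as 6.46% of all genes did, with log2 differences of -0.61, -0.39 and -0.13 (edgeR adjusted p = 0.0640, 0.0977 and 0.160). Without female LKO replicates 2 and 3 the Acsl1 difference was -0.18 (edgeR adjusted p = 0.346).

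Within groups, Pex11a did not move with the other members. After group means were removed, its Pearson r of log2 CPM over the 16 libraries lay between -0.414 with Hsd17b4 and -0.041 with Abcd3. The highest r among members were 0.803 for Ehhadh with Hsd17b4, 0.760 for Ehhadh with Vnn1 and 0.735 for Acaa1a with Vnn1. These libraries share depth and cell composition across genes, so the values describe the libraries. With summed crypt proliferation markers Pex11a had an r of 0.517 and Acaa1a one of -0.584. With the summed hepatocyte list Pex11a had 0.522 and Hsd17b4 had -0.737, and of that list 6 of 10 genes were above 1 CPM in every group. Such a sum follows the most abundant genes of its list.

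**Figure D5:**
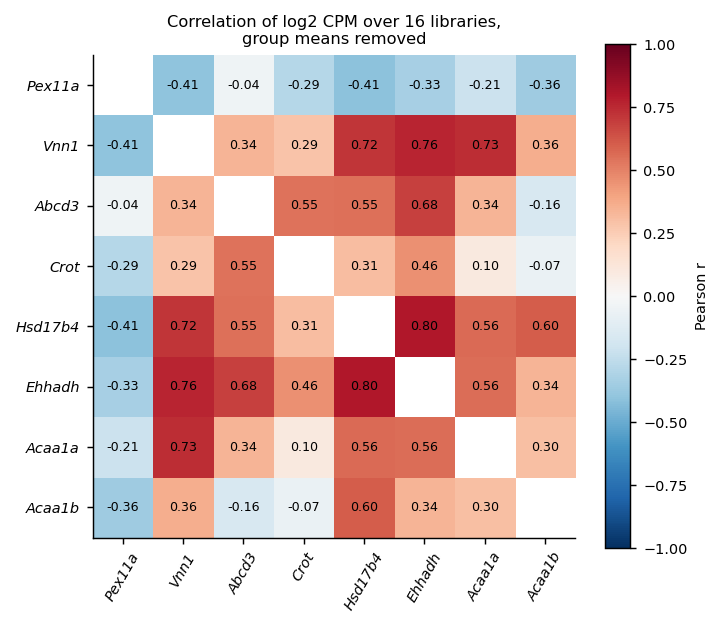
Pearson r of log2 CPM between the 8 tested members over 16 libraries after group means were removed (colour scale from -1 to 1, values printed in the cells). Every cell in the Pex11a row is negative, between -0.414 and -0.041, whereas Ehhadh with Hsd17b4 reached 0.803.

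The genes most like each member in that measure were sought among 14421 genes whose mean reached 1 CPM. For Pex11a these were C2cd4a (r = 0.843), Nup37 (r = 0.817) and Jagn1 (r = 0.807). For Vnn1 they were Smarcd1 (r = 0.909), Slc5a6 (r = 0.903) and Dmac2 (r = 0.897). For Ehhadh they included Pttg1ip (r = 0.932) and Fam20a (r = 0.928). The first gene was Shpk for Acaa1a (r = 0.930), Slc1a5 for Acaa1b (r = 0.853), Fxyd2 for Hsd17b4 (r = 0.898), Csnk2a1 for Abcd3 (r = 0.915) and Ankmy2 for Crot (r = 0.879). No member was among the 3 genes most like another member.

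Marker levels differed between groups in places where members were compared. In females the summed colon markers were 5448 to 5841 CPM in LKO and 6127 to 7405 CPM in WT, with 8 of 9 genes measured, and the hepatocyte list summed to 494 to 581 CPM in LKO and 601 to 717 CPM in WT. In males T cell markers summed to 154 to 176 CPM in LKO and 169 to 256 CPM in WT. The proximal small intestine sum also separated the female genotypes, at 204 to 283 CPM in WT and 294 to 479 CPM in LKO. Sums follow the most abundant genes of a list. In females 1 of 6 tested colon genes, 5 of 6 hepatocyte genes and 5 of 9 proximal genes were above 0 on the log2 scale. The list medians were -0.25, 0.11 and 0.02, so the hepatocyte and proximal sums do not describe most genes of their lists. In males the proximal sum was 388 to 471 CPM in LKO and 281 to 392 CPM in WT apart from male WT replicate 4. That library, with the lowest Vnn1, Ehhadh and Abcd3, was at 825 CPM. Clock output genes summed to 417 to 538 CPM over all libraries. The part of these markers in the members' values was not tested.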

How the data were processed

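Ileum was a 1 cm piece taken just before the cecum, and polyadenylated RNA was sequenced as stranded single-end libraries. The deposited values were raw counts per gene. The authors aligned reads to mm10 with STAR 2.5.2, kept uniquely mapped reads and counted exons with HOMER 4.10 without normalization; the strand option and annotation version were not given in the sources used here. The table had 24940 genes and 0 columns from other series.

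From these counts, CPM and tests were computed in R 4.3.3. The main test was the quasi-likelihood test of edgeR 4.0.16 (TMM scaling, filterByExpr by group, robust fit), with Benjamini-Hochberg adjustment over all genes tested and a threshold of 0.05. Genotype was compared within each sex and over both with sex as a covariate, and the interaction and the sexes were tested as well. DESeq2 1.42.0 was the main alternative, since the study used that tool. Other alternatives changed scaling, filter, dispersion, covariates or libraries. P-values measure the spread between these mice, and limits from 0 reads cover counting error only.

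Named beside the 9 genes were list genes that passed the threshold, up to 3 per direction and comparison with no overlap between groups, the smallest unadjusted p and a mean of at least 1 CPM, and Ppara. Pex11g, Cyp4a relatives, Cat and Bcl6 were added for context. Some genes that the rules name are not reported here. Members and lists were chosen with earlier results of these data known. Promoters came from RefSeq (GRCm38.p6) and coding sequences from GENCODE transcripts. The fits were tested on simulated data.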

Additional observations from a re-analysis of the deposited data

Results flagged for a closer look

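Acaa1b in male LKO replicate 2 was at 1.49 CPM, far from the other 3 male LKO libraries at 0.759 to 0.879 CPM. The gap to its neighbour was 0.837 of the range of the group. It was the only such library among 32 combinations of a gene and a group examined, and chance flags about 1 in 20 groups. Acaa1b had 354 reads in all 16 libraries.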

How the results depend on the processing

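Of 1535 values of single genes under alternatives, 1406 kept direction and side of the threshold, 54 lost a call, 21 gained one and 54 turned in sign. The cause of these changes was not tested. For Pex11a over both sexes, 29 alternatives gave log2 fold changes of 0.35 to 0.45 and 24 passed, with adjusted p from 4.54e-05 to 0.999. Same-numbered libraries did not deviate together in every pair, with Pearson r of -0.168 to 0.305. Differently numbered pairs were not compared, so whether replicate numbers pair the mice cannot be told. With a replicate block 16 genes passed in males, 15 in females and 16 over both sexes, PPAR alpha targets numbered 1, 0 and 2, and Pex11a kept its call (0.39, edgeR adjusted p = 0.0314). DESeq2 called 59 genes in males, 156 in females, 222 over both sexes, 240 between WT sexes and 1039 between LKO sexes, members 1, 1 and 2, and PPAR alpha targets 4, 4 and 7 in the 3 genotype comparisons. Acaa1a between WT sexes turned to 0.0073 with DESeq2, 0.0043 with RLE scaling, 0.0053 with 1 dispersion for all 16 libraries and 0.00075 with no filter. With 1 dispersion 4 genes passed in males, 12 in females and 403 between LKO sexes, and targets numbered 1 in males and 0 in females. With no filter 25 passed in males, 15 in females, 71 between WT sexes and 139 between LKO sexes, with 1 target in males. With at least 10 counts in every library 14 passed between WT sexes and 1 between LKO sexes. The newer quasi-likelihood method gave 10 in females, and the non-robust fit 12 and 8 between WT and LKO sexes and 0 targets in females. Upper-quartile scaling gave 78 between LKO sexes, Crot 0.0068 in females and Pex11a -0.018 between LKO sexes. With female LKO replicate 1 thinned to the median depth 3 passed in females, 25 over both sexes and 0 targets in females. With the title number as covariate 2 genes, 0 members and 0 targets passed over both sexes. With sets of numbers as a factor 0 genes, 0 members and 0 targets did, and Acaa1a was 0.0036. The remaining alternatives were chosen after seeing the data. In the largest set alone 0 genes, 0 members and 0 targets passed and Hsd17b4 was -0.031. Without the 3 libraries rich in B cell markers, 3 genes passed in females, 4 over both sexes and 33 between LKO sexes, with 1 member in males and 0 over both, and 1, 0 and 1 targets. There, female values were -0.10 for Acaa1a, -0.065 for Hsd17b4, 0.041 for Crot and -0.046 for Vnn1, the Acaa1a interaction was 0.063, and differences between LKO sexes were 0.034 for Acaa1a, 0.65 for Acaa1b, -0.034 for Pex11a and 0.17 for Vnn1. Leaving out 1 library gave 5 to 29 calls in males, 0 to 4 in females, 5 to 102 over both sexes, 0 to 1 for the interaction, 9 to 64 between WT sexes and 7 to 665 between LKO sexes. Members numbered 0 to 1 in males and over both sexes, and targets 0 to 1 in males, 0 to 0 in females and 1 to 4 over both. The same fits gave ranges across 0 in females for Abcd3 (-0.049 to 0.051), Acaa1a (-0.050 to 0.061), Acaa1b (-1.09 to 0.26), Crot (-0.084 to 0.057) and Hsd17b4 (-0.040 to 0.10), and in males for Ehhadh (-0.061 to 0.11) and Ppara (-0.092 to 0.12). Between WT sexes they did for Acaa1a (-0.061 to 0.069), Crot (-0.11 to 0.029) and Hsd17b4 (-0.13 to 0.0093), and between LKO sexes for Acaa1b (-0.46 to 0.37), Pex11a (-0.050 to 0.12) and Vnn1 (-0.21 to 0.094). Acaa1b over both sexes ranged from -0.41 to 0.29 and the Pex11a interaction from -0.095 to 0.077. Over all 16 libraries Acaa1b had 354 reads, with a within-group coefficient of variation of 78.7%, and Cyp4a10 had 1 read. The part of depth in their values was not tested.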
